A study of Oryctolagus cuniculus with 20 samples.

Results

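The genes described here are PDGFRB (ENSOCUG00000001725), BCAR1 (ENSOCUG00000015992), ETS1 (ENSOCUG00000010492) and MMP2 (ENSOCUG00000006714), which encode a growth factor receptor, a docking protein, a transcription factor and a matrix protease. They were chosen from the study's own list of differentially expressed genes (DEGs), which rests on these same valves: PDGFRB, BCAR1 and MMP2 are listed there for pergolide and for dexfenfluramine against non-treated rabbits, and ETS1 for pergolide alone. They are 4 of 23669 genes counted, and all 4 had enough counts to be among the 8683 genes tested. Because differences between drug-treated and non-treated valves chose the 4 genes, those differences, and those against serotonin-treated valves, are given as a description with no test. The difference between the drugs was tested for PDGFRB, BCAR1 and MMP2, and is a description for ETS1. The same drug-treated valves entered the choice of PDGFRB, BCAR1 and MMP2, which were listed for both drugs. Such a choice can favour genes with like levels under the drugs, so a high p here is no evidence of likeness.

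PDGFRB is the receptor tyrosine kinase for PDGF-B and PDGF-D, found on mesenchymal cells such as fibroblasts, pericytes and smooth muscle cells, and its activation drives their growth and migration through RAS-MAPK and PI3K signalling. BCAR1, also called p130Cas, is a docking protein of focal adhesions that is phosphorylated by SRC and FAK when integrins or growth factor receptors are engaged. ETS1 is a transcription factor activated by MAPK phosphorylation that acts on promoters of matrix protease genes, and MMP2 is a secreted gelatinase that cleaves denatured collagen and basement membrane collagen and takes part in the turnover of the valve matrix.

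The study asked which genes change in the tricuspid valve during long-term oral treatment with serotonin or with drugs linked to valvular heart disease. RNA from the tricuspid valves of 20 female New Zealand white rabbits, 8 weeks old at the start, was sequenced, 5 rabbits in each of 4 groups. Non-treated controls received water, and the other groups received serotonin at 80 mg/kg per day, 0.5 mg/kg per day of the ergot derivative pergolide, or 20 mg/kg per day of the anorectic amphetamine derivative dexfenfluramine, each in drinking water for 16 weeks. The dose of dexfenfluramine is that of the sample labels and of the study's methods, and the results section of the study states a different one. Each drug was given at a single dose, so the comparison of drugs is a comparison of these doses. Reads were mapped by the authors to the oryCun2 assembly and counted on Ensembl genes. Between 3247091 and 5921025 reads per valve were counted.

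The most abundant gene, ENSOCUG00000029084, which has no symbol here, took between 20.3% and 48.1% of the counts of a valve, with a mean of 40.7% ± 7.39 (SD, n = 5) in control valves and 29.1% ± 5.65 (SD, n = 5) in dexfenfluramine-treated valves. 2 valves stood apart from their groups. In control 3 that gene took 28.5% of the counts, against 40.4% to 48.1% in the other controls, and in dexfenfluramine 3 it took 20.3%, against 27.1% to 34.3% in the other valves of its group. The summed level of 8 cardiomyocyte marker genes was also low in both, at 47968 counts-per-million (CPM) in control 3 and 12182 CPM in dexfenfluramine 3, where the other controls had at least 94081 CPM and the other dexfenfluramine-treated valves at least 50919 CPM. Fold changes, calls and marker levels are also given without these valves where leaving them out ended a call or moved a printed value by over 1.5 times, a comparison chosen after seeing the data.

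Levels are CPM after normalization by TMM, which weighs the composition of each library. Gene lengths were not used, so levels are compared between valves and not between genes. In the RefSeq annotation of the rabbit assembly mOryCun1.1, used here for names and neighbours only, 0 genes overlap any of the 4, and the nearest protein-coding genes are CSF1R and CDX1 for PDGFRB, LOC100342191 and CFDP1 for BCAR1, KIRREL3 and FLI1 for ETS1, and IRX6 and LPCAT2 for MMP2.

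PDGFRB was higher in drug-treated valves than in non-treated controls. Control valves 1 to 5 had 37.5, 36.0, 42.1, 40.3 and 38.9 CPM, and serotonin-treated valves 1 to 5 had 53.3, 40.8, 48.8, 39.1 and 46.3 CPM. Pergolide-treated valves had 49.4, 84.9, 46.8, 70.7 and 75.6 CPM, and dexfenfluramine-treated valves had 72.5, 69.8, 65.5, 62.2 and 61.6 CPM. Every drug-treated valve was above every control valve, and the dexfenfluramine-treated valves were also above every serotonin-treated valve. The pergolide group was split: 3 of its 5 valves lay above 70 CPM, and 2 lay within the range of serotonin-treated valves. The means were 39.0 ± 2.37 CPM in controls, 45.7 ± 5.81 CPM with serotonin, 65.5 ± 16.7 CPM with pergolide and 66.3 ± 4.75 CPM with dexfenfluramine (SD, n = 5 each). In that order each group overlapped the next, including serotonin with controls and pergolide with dexfenfluramine.

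The receptor's level was 1.68 times that of controls with pergolide, a log2 fold change of 0.75 ± 0.14 (SE), and 1.70 times with dexfenfluramine, 0.76 ± 0.14 (SE). Serotonin-treated valves differed from controls by 0.23 ± 0.14 (SE) on the log2 scale. Against serotonin, the log2 fold change was 0.52 ± 0.14 (SE) with pergolide and 0.53 ± 0.14 (SE) with dexfenfluramine. Without control 3 and dexfenfluramine 3, the log2 fold changes against controls were 0.77 with pergolide and 0.79 with dexfenfluramine. In limma-voom with 4 surrogate variables, which are estimates of variation not explained by the groups, they were 0.53 ± 0.19 (SE) and 0.50 ± 0.20 (SE), and those against serotonin were 0.29 ± 0.20 (SE) with pergolide and 0.26 ± 0.21 (SE) with dexfenfluramine. Dexfenfluramine and pergolide differed by 0.02 ± 0.13 (SE, n = 5 each) on the log2 scale, with a 95% interval from −0.26 to 0.29 and an adjusted p of 0.985 over all genes in edgeR's quasi-likelihood test, so a difference between the drugs of up to 1.22 times lies within the interval. The sign of this small difference turned when single valves were left out, from −0.08 without pergolide 3 to 0.13 without pergolide 2.

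As the valves are bulk tissue, a different number of cells of a type and a different amount of RNA per cell cannot be told apart, for PDGFRB as for the other genes.

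BCAR1, the docking protein, went the other way: it was lower in drug-treated valves than in controls and highest with serotonin. Control valves 1 to 5 had 105.7, 79.9, 78.5, 74.4 and 89.5 CPM, and serotonin-treated valves had 101, 98.7, 103, 107 and 88.2 CPM. Pergolide-treated valves had 50.0, 50.4, 62.4, 57.7 and 55.9 CPM, and dexfenfluramine-treated valves had 58.7, 63.6, 60.3, 57.6 and 57.2 CPM. The 10 drug-treated valves all lay below the 10 valves of the other groups, with a gap between the highest dexfenfluramine-treated valve and the lowest control of 10.8 CPM. Control 1 was high among controls and lay within the range of serotonin-treated valves. From the lowest up, the group means were 55.3 ± 5.20 CPM with pergolide, 59.5 ± 2.59 CPM with dexfenfluramine, 85.6 ± 12.5 CPM in controls and 99.7 ± 7.13 CPM with serotonin (SD, n = 5 each). Pergolide overlapped dexfenfluramine and controls overlapped serotonin, while dexfenfluramine and controls did not overlap.

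BCAR1 stood at 0.65 times its control level with pergolide, a log2 fold change of −0.63 ± 0.09 (SE), and at 0.70 times with dexfenfluramine, −0.52 ± 0.09 (SE). With serotonin the log2 fold change was 0.22 ± 0.09 (SE), or 1.17 times the control level, and it was 0.41 ± 0.09 (SE) in limma-voom with surrogate variables. The distance of the drugs from serotonin was therefore larger than that from controls, with log2 fold changes of −0.85 ± 0.09 (SE) for pergolide and −0.75 ± 0.09 (SE) for dexfenfluramine. Without control 3 and dexfenfluramine 3, the values against controls were −0.67 for pergolide and −0.56 for dexfenfluramine. Without control 1 they were −0.56 and −0.45. Between the drugs, dexfenfluramine minus pergolide was 0.11 ± 0.09 (SE, n = 5 each) with a 95% interval from −0.08 to 0.30 and an edgeR adjusted p of 0.800, and it was 0.05 in limma-voom with surrogate variables.

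ETS1, the transcription factor, was lower with the drugs by a smaller margin. Control valves 1 to 5 had 23.4, 27.1, 24.9, 28.5 and 29.2 CPM, and serotonin-treated valves had 23.8, 30.1, 24.5, 26.0 and 30.1 CPM. Pergolide-treated valves had 20.7, 19.8, 20.9, 22.0 and 21.3 CPM, and dexfenfluramine-treated valves had 23.2, 23.3, 23.2, 20.7 and 24.04 CPM. All pergolide-treated valves were below all control and serotonin-treated valves, whereas the dexfenfluramine-treated valves reached into the lower end of both groups. Dexfenfluramine 4 was low within its group, at the level of pergolide-treated valves. The means were 20.9 ± 0.80 CPM with pergolide, 22.9 ± 1.28 CPM with dexfenfluramine, 26.6 ± 2.43 CPM in controls and 26.9 ± 3.01 CPM with serotonin (SD, n = 5 each), and each group in this order overlapped the next.

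On the log2 scale ETS1 differed from controls by −0.35 ± 0.09 (SE) with pergolide, by −0.22 ± 0.09 (SE) with dexfenfluramine and by 0.01 ± 0.09 (SE) with serotonin. Against serotonin the values were −0.36 ± 0.09 (SE) for pergolide and −0.23 ± 0.09 (SE) for dexfenfluramine, the latter −0.14 ± 0.14 (SE) in limma-voom with surrogate variables. The drugs differed from each other by 0.13 ± 0.09 (SE), which was not tested because ETS1 is listed for 1 drug only. Without control 3 and dexfenfluramine 3 the differences from controls were −0.38 with pergolide, −0.26 with dexfenfluramine and −0.02 with serotonin. Counts of ETS1 ran from 65 to 150 per valve, and counting alone gives a coefficient of variation of 8.94% to 10.2% in the groups, against an observed 3.84% with pergolide, 5.59% with dexfenfluramine, 9.11% in controls and 11.2% with serotonin. The spread between valves of a group was thus within or close to counting error for this gene.

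MMP2, the gelatinase, was higher in drug-treated valves, with more overlap than PDGFRB showed. Control valves 1 to 5 had 237, 293, 322, 182 and 301 CPM, and serotonin-treated valves had 364, 230.1, 314, 306 and 258 CPM. Pergolide-treated valves had 297, 346, 367, 385 and 428 CPM, and dexfenfluramine-treated valves had 359, 435, 480.2, 343 and 404 CPM. All dexfenfluramine-treated valves were above all controls, but pergolide 1 lay among the controls and below serotonin 1, 3 and 4, and serotonin 1 lay among the valves of both drugs. Control 3 and dexfenfluramine 3, the valves that stood apart, each had the highest level of their group, and control 4 had the lowest of all valves. The means were 267 ± 56.8 CPM in controls, 294 ± 51.95 CPM with serotonin, 365 ± 48.5 CPM with pergolide and 405 ± 55.8 CPM with dexfenfluramine (SD, n = 5 each), and each group in this order overlapped the next.

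The log2 fold change of MMP2 against controls was 0.45 ± 0.15 (SE) with pergolide and 0.60 ± 0.15 (SE) with dexfenfluramine, or 1.36 and 1.51 times the control level, and 0.14 ± 0.15 (SE) with serotonin. Against serotonin it was 0.31 ± 0.15 (SE) with pergolide and 0.46 ± 0.15 (SE) with dexfenfluramine. Single valves moved these values. Against controls without control 3 the value for serotonin was 0.22, that for pergolide 0.52 and that for dexfenfluramine 0.67, and without control 4 they were 0.03, 0.33 and 0.48. Without both control 3 and dexfenfluramine 3 they were 0.52 for pergolide and 0.60 for dexfenfluramine. In limma-voom with surrogate variables the value was 0.29 ± 0.13 (SE) for pergolide and 0.28 ± 0.13 (SE) for dexfenfluramine against controls, 0.08 ± 0.11 (SE) for serotonin, and 0.20 ± 0.14 (SE) for dexfenfluramine against serotonin. Dexfenfluramine minus pergolide was 0.15 ± 0.15 (SE, n = 5 each) with a 95% interval from −0.16 to 0.46 and an edgeR adjusted p of 0.831, and it was 0.08 without dexfenfluramine 3 and −0.01 with surrogate variables.

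**Figure D1:**
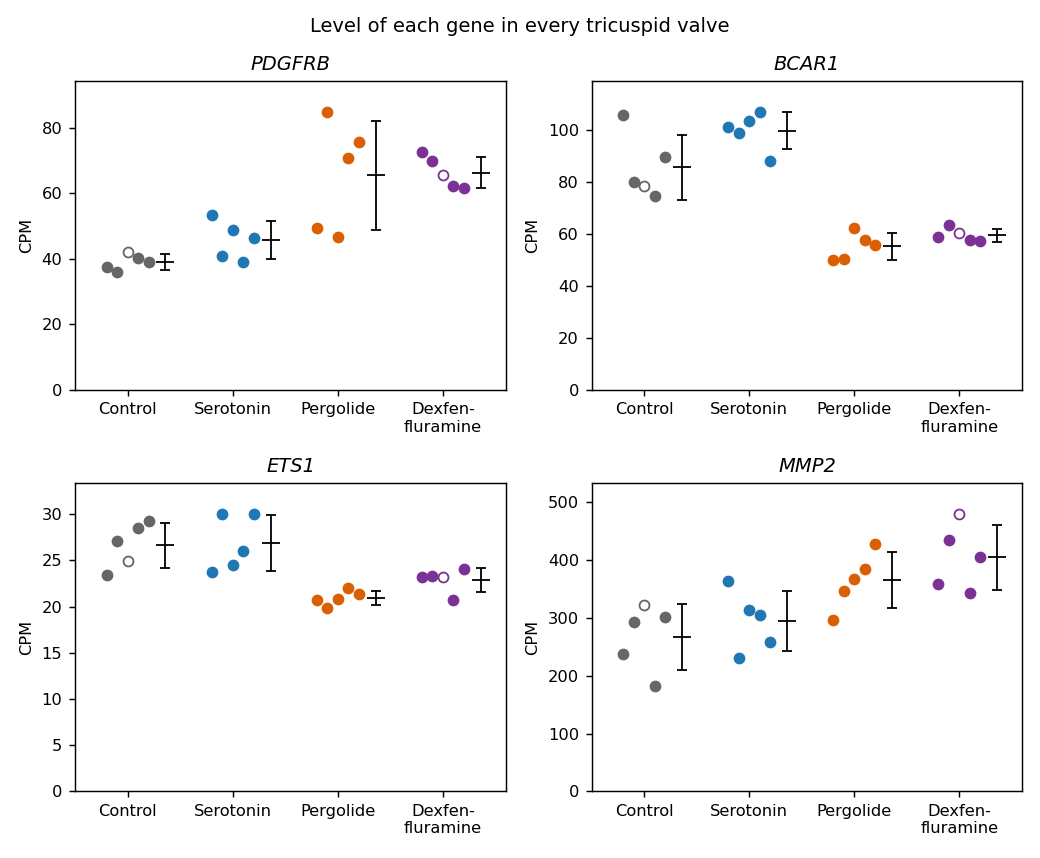
Level in CPM (vertical axis, from 0) of PDGFRB, BCAR1, ETS1 and MMP2 in each valve, by group, with the mean and SD of 5 valves as a bar beside the points and control 3 and dexfenfluramine 3 as open circles. PDGFRB and MMP2 are higher and BCAR1 and ETS1 lower in drug-treated valves than in controls, with the BCAR1 levels of the 10 drug-treated valves below those of the other 10.

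Side by side, 3 of the 4 genes (PDGFRB, BCAR1 and ETS1) had no overlap between pergolide-treated and control valves, and 3 of the 4 (PDGFRB, BCAR1 and MMP2) had none between dexfenfluramine-treated and control valves, while 0 of the 4 were free of overlap between serotonin-treated and control valves. Against serotonin-treated valves, 2 of the 4 (BCAR1 and ETS1) had no overlap with pergolide and 2 of the 4 (PDGFRB and BCAR1) had none with dexfenfluramine. These counts follow from the way the genes were chosen, and nothing is read from them. The share of all genes without overlap is not given here, and the edgeR shares that follow are another measure. Among all 8683 genes tested, edgeR called 12.1% higher and 12.7% lower with pergolide than in controls, 13.5% higher and 15.4% lower with dexfenfluramine, and 1.04% higher and 0.15% lower with serotonin, at an adjusted p under 0.05. The 90 genes higher and 13 lower with serotonin became 249 higher and 232 lower without control 3 and dexfenfluramine 3, so neither their number nor their balance was stable. Against serotonin the shares were 12.4% higher and 15.1% lower with pergolide, and 13.9% higher and 16.4% lower with dexfenfluramine. The comparisons share control or serotonin-treated valves, so they are not independent of one another. Between the drugs edgeR called 0% of genes in either direction. That count of 0 stood beside 613 genes at an unadjusted p under 0.05, and it was 4 in DESeq2 and 0 in limma-voom. A p that misses the threshold does not show that the drugs act alike.

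**Figure D2:**
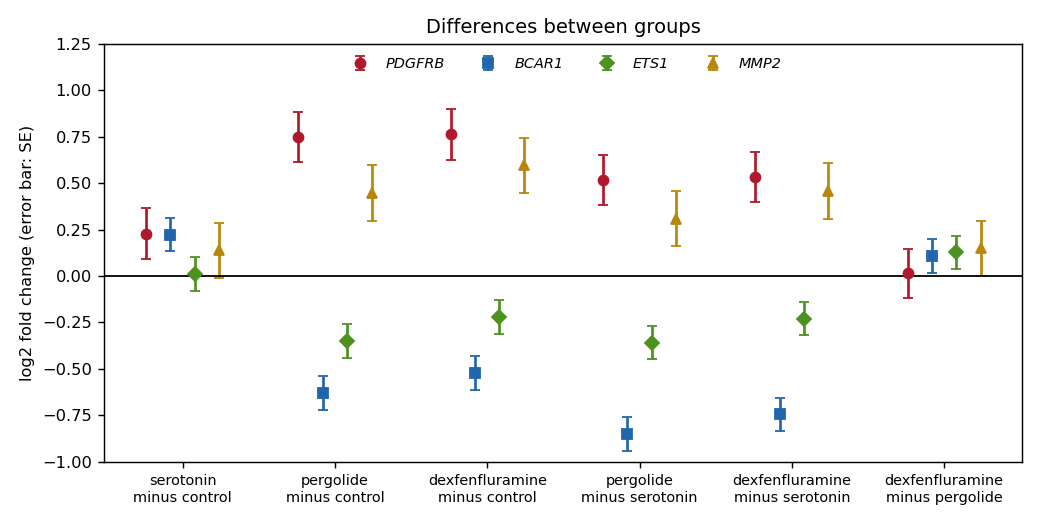
Log2 fold change (vertical axis) with its SE in each of the 6 comparisons of groups, for PDGFRB, BCAR1, ETS1 and MMP2. Against controls and serotonin, the values of both drugs are positive for PDGFRB and MMP2 and negative for BCAR1 and ETS1. The differences between the drugs lie between 0.02 and 0.15.

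The ratio of 2 genes' counts within a valve does not depend on normalization. Since gene lengths cancel only between valves, the ratio says how the balance differs between valves, not which transcript is more abundant. PDGFRB had 0.355, 0.451, 0.537, 0.542 and 0.434 counts per BCAR1 count in control valves 1 to 5, and 0.526, 0.413, 0.472, 0.366 and 0.525 in serotonin-treated valves. It had 0.989, 1.68, 0.750, 1.23 and 1.35 counts per BCAR1 count in pergolide-treated valves, and 1.23, 1.10, 1.09, 1.08 and 1.08 in dexfenfluramine-treated valves. The receptor's share against the docking protein was thus higher in each of the 10 drug-treated valves than in each of the other 10, and the ranges of controls and serotonin lay over each other. Dexfenfluramine-treated valves were close to one another, at 1.12 ± 0.07 (SD, n = 5), while pergolide-treated valves were spread, at 1.20 ± 0.36 (SD, n = 5).

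MMP2 counts per BCAR1 count separated the groups in the same way. They ran from 2.24 to 4.10 in controls and from 2.33 to 3.59 with serotonin, against 5.89 to 7.67 with pergolide and 5.96 to 7.96 with dexfenfluramine. The means were 3.17 ± 0.80 in controls, 2.95 ± 0.45 with serotonin, 6.61 ± 0.73 with pergolide and 6.79 ± 0.81 with dexfenfluramine (SD, n = 5 each). PDGFRB counts per MMP2 count, which compare the genes that were both higher, overlapped between all groups, with means from 0.15 to 0.18. ETS1 counts per BCAR1 count averaged 0.27 in serotonin-treated, 0.32 in control, 0.38 in pergolide-treated and 0.39 in dexfenfluramine-treated valves, and their ranges overlapped between controls and both drugs. As both genes of each ratio were chosen for their differences, these values are a description.

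**Figure D3:**
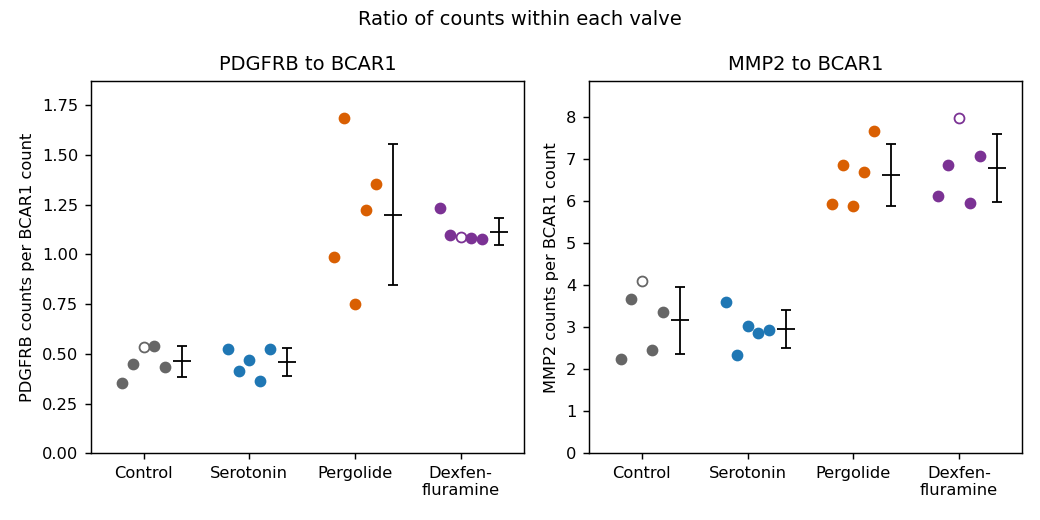
Counts of PDGFRB (left) and MMP2 (right) per BCAR1 count in each valve, by group, with the mean and SD of 5 valves beside the points and control 3 and dexfenfluramine 3 as open circles. In both plots the drug-treated valves lie above all control and serotonin-treated valves, from 0.750 upward on the left and from 5.89 upward on the right.

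The 4 genes differed in how tightly the valves of a group lay together. For PDGFRB the coefficient of variation was 6.09% in controls and 7.16% with dexfenfluramine, near the 8.27% and 5.25% that counting alone gives, but 25.5% with pergolide against 5.32% from counting. For MMP2 it ran from 13.3% to 21.3%, against 2.13% to 3.16% from counting. For BCAR1 it was 4.35% with dexfenfluramine, within the counting error of 5.54%, and 14.6% in controls. Counting error here takes reads as independent, which PCR copies are not.

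Within groups the 4 genes followed one another weakly. After the mean of each group was removed, Pearson's r over the 20 valves was 0.29 for PDGFRB with MMP2 (Spearman's rho 0.37), 0.31 for MMP2 with BCAR1 (0.37), −0.15 for PDGFRB with ETS1 (−0.12) and −0.20 for PDGFRB with BCAR1 (−0.11). It was −0.26 for MMP2 with ETS1 (−0.23) and −0.33 for ETS1 with BCAR1 (−0.26). Without the 2 valves farthest from the median of the first gene, r was 0.45 for PDGFRB with MMP2, 0.11 for MMP2 with BCAR1, −0.04 for ETS1 with BCAR1, and of the other sign for MMP2 with ETS1, at 0.06, and for PDGFRB with BCAR1, at 0.12. MMP2 and ETS1 had r = −0.51 over the 10 control and serotonin-treated valves and 0.55 over the 10 drug-treated valves, a contrast that was not tested. Over all 20 valves without removal of group means, r for the 6 pairs ran from −0.74 to 0.72, values that hold the group differences for which the genes were chosen. The points of each pair share their library and its normalization.

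For each of the 4 genes, the 3 tested genes with a symbol whose log2 CPM followed it most closely over the 20 valves were looked up. The first r given is over all valves and holds the group differences, and the second is after removal of group means. For PDGFRB they were PTPN4, a protein tyrosine phosphatase (r = 0.92 and 0.69), ATRN1 (0.89 and 0.68) and SLC39A10, a zinc transporter (0.88 and 0.50), with Spearman's rho of 0.93, 0.90 and 0.85 over all valves. PTPN4 had 19.2 ± 2.51 CPM in controls, 20.8 ± 1.85 CPM with serotonin, 30.9 ± 4.04 CPM with pergolide and 29.9 ± 2.40 CPM with dexfenfluramine (SD, n = 5 each). For MMP2 they were TYRO3, a receptor tyrosine kinase (r = 0.94 and 0.90), SLC35A5, a member of the nucleotide sugar transporter family (0.93 and 0.86), and DCHS1, a protocadherin (0.93 and 0.84), with rho of 0.92, 0.87 and 0.91. As the 3 genes were picked for their r over the same valves, their values after removal of group means are no separate support. DCHS1 had 47.5 ± 12.3 CPM in controls, 55.8 ± 12.8 CPM with serotonin, 77.1 ± 12.1 CPM with pergolide and 88.3 ± 9.11 CPM with dexfenfluramine (SD, n = 5 each). TYRO3 was at a low level, with 2.75 ± 1.00 CPM in controls and 3.67 ± 2.24 CPM with serotonin. TYRO3 had 6.32 ± 1.45 CPM with pergolide and 6.89 ± 3.23 CPM with dexfenfluramine (SD, n = 5 each).

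For BCAR1 the nearest were RBM33, an RNA-binding protein (r = 0.96 and 0.53), SLC22A2, an organic cation transporter (0.95 and 0.65), and SUPT6H, a transcription elongation factor (0.95 and 0.52), with rho of 0.87, 0.90 and 0.81. RBM33 had the order of levels of BCAR1, with 102 ± 7.33 CPM with pergolide, 111 ± 4.77 CPM with dexfenfluramine, 165 ± 16.2 CPM in controls and 197 ± 10.8 CPM with serotonin (SD, n = 5 each). For ETS1 they were SNORD15, a small nucleolar RNA (r = 0.88 and 0.70), GNL3L, a nucleolar GTPase (0.87 and 0.53), and PRKAA1, a catalytic subunit of AMPK (0.84 and 0.55), with rho of 0.89, 0.87 and 0.85. PRKAA1 had 48.05 ± 3.80 CPM in controls, 43.2 ± 4.16 CPM with serotonin, 33.9 ± 2.00 CPM with pergolide and 36.2 ± 1.90 CPM with dexfenfluramine (SD, n = 5 each). Symbols come from the study's DEG list alone, so genes outside that list could not be named here.

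Partner genes of the 4 were looked up in 6 lists that hold 141 genes, of which 42 had a symbol, and all 42 of these were tested. A symbol itself comes from the study's DEG list, so a large share of called genes among the 42 follows from how they could be found, and the counts are not independent evidence of a direction. Genes listed for serotonin alone are printed there with shortened identifiers and could not be used, so the count with serotonin cannot be set beside those with the drugs. Of the 42, edgeR called 16 higher and 10 lower with pergolide than in controls (all genes 12.1% and 12.7%), 19 higher and 11 lower with dexfenfluramine (13.5% and 15.4%), and 1 higher and 0 lower with serotonin (1.04% and 0.15%), where 9 had an unadjusted p under 0.05 and DESeq2 called 4 in all. Against serotonin, 13 were higher and 6 lower with pergolide (12.4% and 15.1%), and 14 were higher and 8 lower with dexfenfluramine (13.9% and 16.4%). Between the drugs edgeR called 0 of the 42, with 4 at an unadjusted p under 0.05, and DESeq2 and limma-voom also called 0. The median log2 fold change of the 42 was 0.22 with pergolide and 0.26 with dexfenfluramine against controls, beside 0.02 and 0.03 over all tested genes, and −0.04 with serotonin beside 0.01.

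These counts moved with single valves and with the model. With pergolide against controls, 26 partners were called in all, 25 without control 3 and dexfenfluramine 3, 17 without control 2, pergolide 1 or pergolide 4, and 9 in limma-voom with surrogate variables. With dexfenfluramine, 30 were called in all, 26 without control 3 and dexfenfluramine 3, 20 without dexfenfluramine 3 or control 4 alone, and 7 with surrogate variables. Against serotonin, 19 were called with pergolide and 22 with dexfenfluramine, and with surrogate variables 11 and 7. With serotonin against controls, the count was 0 without control 2, 4 or 5 or serotonin 1, 2 or 4, 3 without control 3 or serotonin 3, 4 without both control 3 and dexfenfluramine 3, and 0 with surrogate variables.

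**Figure D4:**
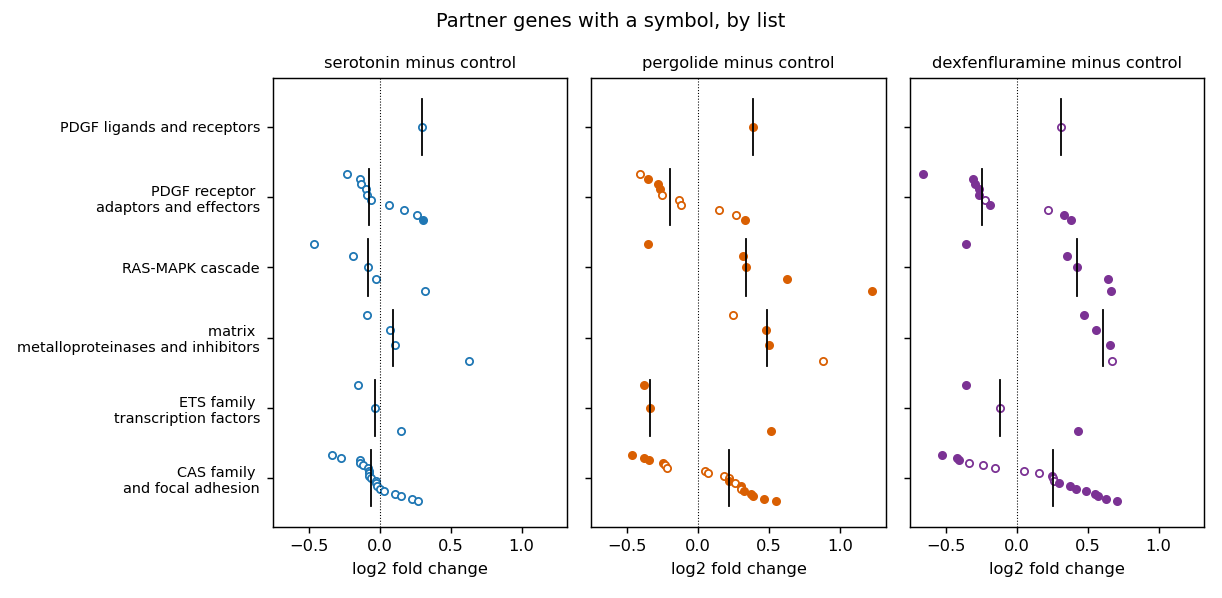
Log2 fold change (horizontal axis) against controls of the 42 partner genes with a symbol, by list, for serotonin, pergolide and dexfenfluramine, with called genes filled, other genes open and a line at each list's median. In the plots of the drugs, filled points lie on both sides of 0, 16 higher and 10 lower with pergolide and 19 higher and 11 lower with dexfenfluramine.

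Among 6 PDGF ligands and receptors, 1 had a symbol, PDGFC, a PDGF ligand that acts chiefly through PDGFRA. It rose with pergolide, from 18.5 ± 2.14 CPM in controls to 24.4 ± 4.62 CPM, a log2 fold change of 0.39 ± 0.12 (SE, n = 5 each), and was no longer called without control 3 and dexfenfluramine 3, at 0.37. PDGFC had 22.9 ± 2.72 CPM with serotonin and 23.1 ± 1.51 CPM with dexfenfluramine, log2 fold changes of 0.30 ± 0.13 and 0.31 ± 0.12 (SE) that did not pass the test. PDGFA, PDGFB, PDGFD and PDGFRA had no usable symbol in the study's DEG list and were not analysed here.

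Of 25 adaptors and effectors of the PDGF receptor, 10 had a symbol. With pergolide 1 rose and 3 fell (all genes 12.1% and 12.7%), and with dexfenfluramine 2 rose and 6 fell (13.5% and 15.4%), with list medians of −0.20 and −0.24. With surrogate variables 0 were called higher with either drug, and 3 lower with pergolide and 2 with dexfenfluramine. PIK3CA, the catalytic PI3K subunit, rose with both drugs by 0.33 ± 0.08 (SE) on the log2 scale. It went from 65.0 ± 5.903 CPM in controls to 81.7 ± 5.94 CPM with pergolide and 81.8 ± 4.89 CPM with dexfenfluramine, and its values were 0.15 and 0.16 in limma-voom with surrogate variables. The PI3K regulatory subunit PIK3R3 fell with dexfenfluramine from 59.8 ± 10.38 to 37.7 ± 5.79 CPM, a log2 fold change of −0.66 ± 0.17 (SE) that was −0.31 with surrogate variables, and stood at 44.96 ± 9.45 CPM with pergolide, where it did not pass the test with all valves and passed it without control 3 and dexfenfluramine 3. PTPN11, the phosphatase SHP2, fell with dexfenfluramine by 0.31 ± 0.07 (SE) on the log2 scale. The adaptor NCK1 fell with pergolide by 0.35 ± 0.13 (SE), but its value was −0.21 without control 3 and it was not called without control 3 and dexfenfluramine 3. The kinase JAK1 fell by 0.29 ± 0.07 (SE) with pergolide and by 0.26 ± 0.07 (SE) with dexfenfluramine, and STAT5B rose with dexfenfluramine by 0.38 ± 0.12 (SE). SOS1, the exchange factor that loads RAS with GTP, was the 1 partner called with serotonin and rose from 72.7 ± 4.62 to 89.8 ± 5.56 CPM, a log2 fold change of 0.30 ± 0.07 (SE). This call was lost, among other alternatives, with surrogate variables, with the replicate block, with only the 2 groups compared, and without control 2, 4 or 5 or serotonin 1, 2 or 4. SOS1 fell with dexfenfluramine, to 63.7 ± 4.06 CPM, a call lost without control 3 and dexfenfluramine 3.

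Of 17 genes of the RAS-MAPK cascade, 5 had a symbol, and 4 of them rose with each drug (all genes 12.1% with pergolide and 13.5% with dexfenfluramine), with list medians of 0.34 with pergolide and 0.43 with dexfenfluramine. With surrogate variables 1 was called higher with pergolide and 0 with dexfenfluramine. Those with the largest rise are feedback inhibitors of the cascade. DUSP6, the phosphatase that inactivates ERK, had 3.92 ± 1.17 CPM in controls, 4.99 ± 1.32 CPM with serotonin, 9.41 ± 1.53 CPM with pergolide and 6.23 ± 1.11 CPM with dexfenfluramine (SD, n = 5 each). Its log2 fold change was 1.23 ± 0.22 (SE) with pergolide, where all 5 valves were above all controls, and 0.64 ± 0.22 (SE) with dexfenfluramine, where the groups overlapped. SPRY1, an inhibitor of receptor tyrosine kinase signalling, rose from 21.4 ± 3.23 CPM in controls to 33.3 ± 9.07 CPM with pergolide and 34.2 ± 6.74 CPM with dexfenfluramine, log2 fold changes of 0.63 and 0.66 (SE 0.17 each). The values of SPRY1 were smaller in limma-voom with surrogate variables, at 0.16 with pergolide and 0.25 with dexfenfluramine.

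Of 22 other matrix metalloproteinases and their inhibitors, 4 had a symbol, of which 2 rose with pergolide and 3 with dexfenfluramine and 0 fell with either (all genes 12.1% and 13.5% higher). With surrogate variables 0 of the 4 were called with either drug. List medians were 0.49 and 0.61. TIMP1, a secreted inhibitor of metalloproteinases, had 11.5 ± 1.81 CPM in controls and rose to 16.4 ± 2.65 CPM with pergolide and 18.4 ± 3.92 CPM with dexfenfluramine. In serotonin-treated valves it had 18.02 ± 3.64 CPM, a log2 fold change of 0.63 ± 0.17 (SE) that did not pass the test with all valves and passed it without control 3 and dexfenfluramine 3, and its value with dexfenfluramine went from 0.66 to 0.33 with surrogate variables. RECK, a membrane-anchored inhibitor of MMP2 and other proteases, rose from 50.1 ± 13.4 CPM to 70.0 ± 11.8 CPM with pergolide and 70.0 ± 15.9 CPM with dexfenfluramine, where its log2 fold change of 0.48 was 0.19 with surrogate variables. MMP19 rose with dexfenfluramine, from 9.95 ± 1.40 to 14.6 ± 4.502 CPM, a call lost without control 3 and dexfenfluramine 3, and had 11.7 ± 2.20 CPM with pergolide. Mean levels of MMP2, TIMP1 and RECK were thus higher with both drugs than in controls. That of TIMP1 with serotonin lay between its means with pergolide and with dexfenfluramine. MMP14 and TIMP2 take part in the activation of the MMP2 proenzyme. They had no usable symbol in the study's DEG list and were not analysed here.

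Among 24 other ETS family factors, 3 had a symbol and they moved in different directions. ELF2 rose from 51.3 ± 5.99 CPM in controls to 73.1 ± 3.76 CPM with pergolide and 69.1 ± 5.19 CPM with dexfenfluramine, with all drug-treated valves above all controls. ELF1 fell from 157 ± 9.75 CPM to 124 ± 11.6 CPM with pergolide and 122 ± 9.63 CPM with dexfenfluramine. ELK4 fell with pergolide by 0.38 ± 0.14 (SE) on the log2 scale, from 48.99 ± 3.79 to 37.5 ± 4.13 CPM, and had 45.1 ± 9.61 CPM with dexfenfluramine.

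Of 47 genes of the CAS family and of focal adhesions, where BCAR1 acts, 19 had a symbol. With pergolide 7 rose and 4 fell (all genes 12.1% and 12.7%), and with dexfenfluramine 9 rose and 3 fell (13.5% and 15.4%), with list medians of 0.22 and 0.26. The balance turned with surrogate variables, where 1 was called higher and 3 lower with pergolide, and 0 higher and 4 lower with dexfenfluramine. NEDD9, a CAS family docking protein like BCAR1, had 91.6 ± 11.7 CPM in controls, 99.1 ± 14.9 CPM with serotonin, 114.6 ± 11.4 CPM with pergolide and 134 ± 18.6 CPM with dexfenfluramine (SD, n = 5 each). It rose by a log2 fold change of 0.32 ± 0.12 (SE) with pergolide and 0.55 ± 0.12 (SE) with dexfenfluramine, the latter 0.36 with surrogate variables, in the direction opposite to that of BCAR1. BCAR3, which binds BCAR1, rose with dexfenfluramine from 7.80 ± 2.83 to 12.98 ± 1.60 CPM and had 9.53 ± 2.82 CPM with pergolide.

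Integrin subunits in the same list moved both ways. ITGA11, a collagen receptor chain of fibroblasts, rose from 40.1 ± 7.80 CPM in controls to 58.8 ± 9.60 CPM with pergolide and 56.6 ± 3.12 CPM with dexfenfluramine, with all drug-treated valves above all controls, and with surrogate variables its value went from 0.55 to 0.33 with pergolide and from 0.49 to 0.20 with dexfenfluramine. ITGB3 rose with dexfenfluramine from 28.0 ± 11.1 to 43.5 ± 14.5 CPM, a log2 fold change of 0.63 that was 0.41 without dexfenfluramine 3 and, at 0.36, was not called without control 3 and dexfenfluramine 3. ITGB8, a chain of the integrin that activates latent TGF-β, fell from 62.3 ± 7.35 CPM to 49.03 ± 5.02 CPM with pergolide and 46.5 ± 5.65 CPM with dexfenfluramine, and its log2 fold changes of −0.34 and −0.42 were −0.56 and −0.65 with surrogate variables. LPP, a zyxin family protein of focal adhesions, rose by 0.46 ± 0.10 (SE) on the log2 scale with pergolide and 0.42 ± 0.10 (SE) with dexfenfluramine (0.30 and 0.26 with surrogate variables), while the adhesion protein TNS1 fell by 0.47 ± 0.13 (SE) with pergolide and by 0.41 ± 0.13 (SE) with dexfenfluramine. ROCK1, a kinase of the contractile actin network, was, like BCAR1, highest with serotonin and lower with the drugs than in controls, at 355 ± 52.1 CPM with serotonin, 294 ± 10.2 CPM in controls, 226 ± 13.2 CPM with pergolide and 204 ± 12.1 CPM with dexfenfluramine (SD, n = 5 each). Its log2 fold change with pergolide went from −0.38 to −0.25 with surrogate variables. Among the partners named, those still called with surrogate variables were NCK1, JAK1, DUSP6, ELF2, TNS1 and ITGB8 with pergolide, and JAK1, ELF2, TNS1, ITGB8 and ROCK1 with dexfenfluramine. PTK2, SRC, CRK and ETS2 had no usable symbol in the study's DEG list and were not analysed here.

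Markers of cell types were measured in the same valves. Like the partners, they have a symbol only through the study's DEG list, so nothing is read from the share of them that was called. All 6 of 10 valvular interstitial cell markers with a symbol (VIM, DCN, LUM, COL1A1, COL1A2 and COL3A1) were counted in every valve, with VIM the most abundant at 2792 ± 688 CPM in controls (SD, n = 5). Their summed level had means of 6166 ± 992 CPM in controls, 6804 ± 702 CPM with serotonin, 8221 ± 1394 CPM with pergolide and 8826 ± 1181 CPM with dexfenfluramine (SD, n = 5 each). Of the 6, edgeR called 4 higher with pergolide and 3 higher with dexfenfluramine than in controls, the fibrillar collagens COL1A1, COL1A2 and COL3A1 in both (all genes 12.1% and 13.5% higher). With surrogate variables 2 were called with pergolide and 1 with dexfenfluramine. VIM was not called with either drug. The called markers named here and below were picked after their values were seen. After removal of group means, the sum followed MMP2 with r = 0.69 (rho 0.70) and PDGFRB with r = 0.49 (rho 0.50) over the 20 valves, and its part in the differences of the 4 genes was not tested.

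Cardiomyocyte markers were abundant and varied widely. The 8 of 12 with a symbol, TTN the most abundant, summed to 106184 ± 39543 CPM in controls, 73536 ± 22642 CPM with serotonin, 71068 ± 20690 CPM with pergolide and 51897 ± 23414 CPM with dexfenfluramine (SD, n = 5 each). Of the 8, edgeR called 1 lower with pergolide and 3 lower with dexfenfluramine than in controls, TNNT2 in both (all genes 12.7% and 15.4% lower). Without control 3 and dexfenfluramine 3 the sum was 120737 ± 25939 CPM in controls and 61826 ± 8586 CPM with dexfenfluramine (SD, n = 4 each), and 6 of the 8 were called lower with pergolide and 7 with dexfenfluramine. With all valves and surrogate variables, 1 was called higher and 1 lower with pergolide, and 1 lower with dexfenfluramine. Within groups the sum ran against MMP2, with r = −0.66 (rho −0.77) after removal of group means, and against PDGFRB with r = −0.28 (rho −0.40), or −0.68 (rho −0.72) and −0.47 (rho −0.56) over the 18 valves without control 3 and dexfenfluramine 3, while BCAR1 (0.05, rho −0.08) and ETS1 (0.07, rho 0.14) followed it little. The share of ENSOCUG00000029084 likewise had r = −0.62 (rho −0.57) with MMP2 and −0.23 (rho −0.28) with PDGFRB. All levels within a valve share 1 normalization, and the part of muscle RNA in the differences of the 4 genes was not tested.

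Other cell types had few markers with a symbol. Of 11 smooth muscle and pericyte markers 4 had one, with DES the most abundant, and their sum had means of 454 ± 151 CPM in controls, 402 ± 74.7 CPM with serotonin, 449 ± 35.9 CPM with pergolide and 348 ± 135 CPM with dexfenfluramine (SD, n = 5 each). Of the 4, 2 were called higher with pergolide (all genes 12.1%), and 1 higher and 1 lower with dexfenfluramine (13.5% and 15.4%), while 0 were called with surrogate variables. The pericyte marker CSPG4 rose with pergolide from 26.5 ± 2.87 to 34.9 ± 4.78 CPM and had 33.3 ± 3.70 CPM with dexfenfluramine. The smooth muscle marker MYH11 had 46.5 ± 19.8 CPM in controls and 31.1 ± 8.62 CPM with pergolide, and fell to 17.2 ± 8.37 CPM with dexfenfluramine. TAGLN, at a low level, rose from 2.09 ± 0.69 CPM to 4.15 ± 0.74 CPM with pergolide, a call lost without control 3 and dexfenfluramine 3, and to 5.37 ± 2.09 CPM with dexfenfluramine. Of 9 endothelial markers 2 had a symbol, PECAM1 and EMCN, and both were called lower with pergolide and 0 with dexfenfluramine (all genes 12.7% and 15.4%). EMCN was not called with pergolide without control 3 and dexfenfluramine 3, and neither was called with surrogate variables. Their sum was 266 ± 77.8 CPM in controls, 296 ± 32.9 CPM with serotonin, 165 ± 39.7 CPM with pergolide and 214 ± 35.2 CPM with dexfenfluramine (SD, n = 5 each). Of 8 adipocyte markers 3 had a symbol, all 3 were called higher with pergolide (all genes 12.1%) and 0 with surrogate variables, and their sum was 35.8 ± 19.7 CPM in controls, 73.3 ± 38.3 CPM with serotonin, 122.7 ± 50.5 CPM with pergolide and 57.4 ± 40.9 CPM with dexfenfluramine (SD, n = 5 each). The endothelial sum followed MMP2 with r = 0.43 (rho 0.25) within groups, and no r of the adipocyte sum over 20 valves passed 0.25 in size. The smooth muscle and pericyte sum had r = −0.64 (rho −0.57) with MMP2 and r = −0.09 (rho −0.18) with PDGFRB within groups. DES made up most of that sum, with a mean of 379 CPM in controls. As cardiomyocytes also express DES and their markers were abundant here, that sum is not specific to smooth muscle and pericytes. Macrophage, lymphocyte, chondrocyte and erythroid markers had 0 genes with a symbol and were not analysed here.

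**Figure D5:**
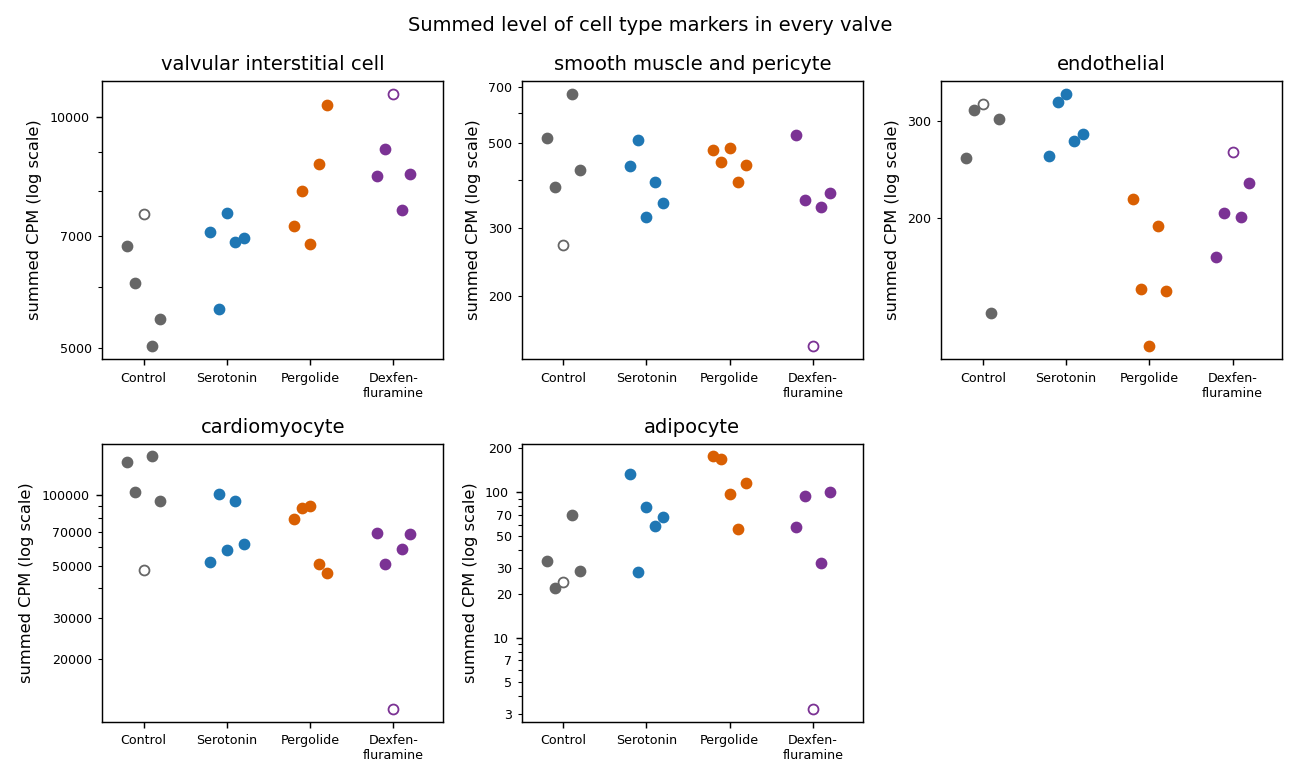
Summed level in CPM (vertical axis, log scale) of the markers of 5 cell types in each valve, by group, with control 3 and dexfenfluramine 3 as open circles. Cardiomyocyte markers are lowest in dexfenfluramine 3, at 12182 CPM, where the valvular interstitial cell sum is highest, at 10710 CPM.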

How the data were processed

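Tricuspid valves of 20 rabbits were measured by RNA-seq of stranded, rRNA-depleted libraries, 1 library per valve. The authors aligned reads to oryCun2 with TopHat2 2.1.1 and deposited HTSeq counts in union mode for 23669 Ensembl genes. The strand setting and the annotation release are not given in the sources used here. The 4 genes and all lists were chosen with earlier results of these data known. Symbols were taken from the identifiers of the study's DEG list, 3521 genes in all. Counts were fitted in edgeR 4.0.16 (R 4.3.3) with TMM, filterByExpr, all 20 valves in 4 groups and a quasi-likelihood test, and genes with a Benjamini-Hochberg adjusted p under 0.05 over the 8683 tested were called. Levels were CPM, and correlations used log2 CPM with a prior count of 2. The authors' HTSFilter and RUVr steps were not applied.

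Named partners were those with the 2 largest rises and 2 largest falls per list and treatment among called genes whose log2 CPM averaged 1 or more, and 12 ligands, receptors, kinases and inhibitors named beforehand, of which 2 had a symbol. For each of the 4 genes, the 3 genes with the highest correlation were also named. Alternatives were DESeq2 1.42.0, limma-voom (limma 3.58.1), limma-voom with 4 surrogate variables (sva 3.50.0), DESeq2's size factors and upper-quartile normalization in edgeR, other filters, a block for replicate number, fits of 2 groups alone, a stricter threshold and each valve left out. Depth sets precision: counts of the 4 genes ran from 65 to 2668 per valve. The fits were also run on simulated data with known fold changes, and nothing is read from those runs here. Tables and figures used Python 3.11.15, numpy 2.4.6, pandas 2.3.3, scipy 1.17.1 and matplotlib 3.10.9.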

Additional observations from a re-analysis of the deposited data

Results flagged for a closer look

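In 148 groups of 5 valves, the gap between the highest or lowest valve and the nearest other valve was divided by the range of the group, and 9 groups held a valve far from the others by Dixon's test at 95%. Chance gives about 1 in 20 groups, so about as many would be found by chance. Of the 4 genes, ETS1 was met once, with dexfenfluramine 4 lowest (gap over range 0.767), at a log2 CPM of 4.40 where the others had 4.56 to 4.61.

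Dexfenfluramine 3 was met for 3 measures: it was highest for ELK4 (0.804), lowest for PIK3R3 (0.758) and lowest for the cardiomyocyte marker sum (0.826), with a log2 CPM of 13.57 for that sum where the others had 15.64 to 16.07. Control 3 was highest for JAK1 (0.760) and control 4 lowest for the endothelial marker sum (0.740). Pergolide 5 was highest for ITGA11 (0.760) and pergolide 3 highest for STAT5B (0.756). Pergolide 2 had the highest total count of its group (0.746), 5921025 counts where the others had 4484239 to 4848510.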

How the results depend on the processing

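An alternative value counted as changed if it lay beyond the spread between valves or turned the sign of a called value, and for PDGFRB, MMP2 and BCAR1 between the drugs if it turned its sign or became called. By this, 12 of 504 alternative values for the 24 fold changes of the 4 genes changed, and 15 of 1572 for partner genes. Values near 0 could turn without being counted, as ETS1 did with serotonin against controls, at −0.047 with surrogate variables and −0.024 without the most abundant gene. In limma-voom with surrogate variables, PDGFRB was 0.50 for dexfenfluramine against controls, 0.26 against serotonin and −0.029 against pergolide. MMP2 was 0.28, 0.20 and −0.0072 in the same comparisons. BCAR1 was 0.41 for serotonin against controls and −0.89 for dexfenfluramine against serotonin. With single valves left out, PDGFRB for dexfenfluramine against pergolide ran from −0.083 to 0.13, and was −0.07 without pergolide 1, −0.083 without pergolide 3, −0.02 without dexfenfluramine 1 and −0.00 without dexfenfluramine 2. Of 24 alternative values for 12 correlations, 23 moved by less than the SE of the correlation, and MMP2 with ETS1 over 20 valves was −0.47 with upper-quartile normalization. The cause was not tested.

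Partners called with serotonin against controls were 4 in DESeq2, 2 with upper-quartile normalization and 0 with surrogate variables, DESeq2's size factors, no filter, the replicate block, only 2 groups, the most abundant gene left out or an adjusted p under 0.01, 4 without control 3 and dexfenfluramine 3, and 0 to 3 with single valves left out. All genes called there were 234 in DESeq2, 53 with DESeq2's size factors, 48 without a filter, 58 with at least 10 counts in every valve, 1 with the replicate block, 0 with only 2 groups or an adjusted p under 0.01, 37 without the most abundant gene, 481 without control 3 and dexfenfluramine 3, and 0 to 257 with single valves left out. Leaving out the most abundant gene, or control 3 and dexfenfluramine 3 together, was chosen after seeing the data.

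With surrogate variables, partners called were 9 for pergolide and 7 for dexfenfluramine against controls, 11 and 7 against serotonin, and all genes called were 1156, 987, 1506 and 1381. Under an adjusted p of 0.01, partners were 9 and 15 against controls, and all genes 1191, 1409, 1478 and 1604. Leave-one-out counts of partners for pergolide against controls ran from 17 to 23. DESeq2 called 4 genes between the drugs.

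Valves with the same replicate number did not deviate together on average: 6 of 30 such pairs had a correlation over 0.1, and the mean was −0.02. Of pairs with different numbers, 37 of 120 had a correlation over 0.1, and the mean was 0.005. The highest correlation was 0.49 among pairs of the same number and 0.35 among the others. With the replicate block, PDGFRB was 0.74 with pergolide and 0.76 with dexfenfluramine against controls. Depth limits ETS1 most, with 65 to 150 counts per valve.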
